A study of Canis lupus familiaris with 58 samples.

Results

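Genes of the T-cell receptor complex and the surface markers of the T lineage were followed through B-cell lymphomas of 58 pet dogs, with 1 Affymetrix array per dog. The 10 genes were CD3D, CD3E, CD3G, CD247, CD4, CD8A, CD8B, CD5, CD6 and CD7, of 15115 genes with a probe set that carries a single gene symbol. They were found by their gene symbols. Where several probe sets carried a symbol, the one with the highest mean stood for the gene, and 6 genes (CD3D, CD3E, CD4, CD8A, CD8B and CD6) had a second one, which served as a check. These were 16 of 43035 probe sets.

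The tumours were sampled before treatment from client-owned dogs, and B-cell markers (by flow cytometry, immunohistochemistry or both) had identified the lymphomas, per the labels. Lymph node tissue came from 39 dogs, 32 with diffuse large B-cell lymphoma (DLBCL) and 7 with marginal zone lymphoma (MZL). Fine needle aspirates came from 19 dogs whose diagnosis was unknown. Mutation of the rearranged antibody heavy chain gene (IGHV status) was static in 26 dogs, ongoing in 27 and ND, which the labels do not explain, in 5. A progression-free survival (PFS) time and indicator were given for 55 dogs (47 events) and an overall survival (OS) time and indicator for 56 dogs (41 events), in a time unit that the labels do not give. The labels give no age, breed or treatment and no healthy tissue, so no level has a normal reference. Bulk tissue cannot tell fewer T cells apart from less RNA per T cell.

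The T-cell receptor recognises peptide on MHC molecules but has almost no signalling tail of its own. It is carried to the surface and connected to kinases by the CD3 delta, epsilon and gamma chains (CD3D, CD3E, CD3G) and by the zeta chain (CD247). CD4 is the co-receptor for MHC class II on helper cells, and in dogs it is also carried by neutrophils. CD8A and CD8B form the co-receptor for MHC class I on cytotoxic cells, while CD5 and CD6 are related scavenger-receptor proteins that tune receptor signalling and CD7 is an early marker of T and natural killer cells. CD5 is also carried by some B cells. In B-cell lymphoma these genes are usually read as a measure of the T cells within the tumour.

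All values are deposited log2 signals of the robust multi-array average (RMA), and differences are in log2 units. Array medians lay between 7.08 and 7.20. The B-cell markers MS4A1 and CD79B had levels of 12.60 ± 0.92 and 10.87 ± 1.05 (SD, n = 58). Of the 7 B-cell markers measured, MS4A1 had the highest mean level. PAX5 had the lowest, at 7.21, against a median level of 7.72 over all genes. Dog 12 and Dog 42, both aspirates, had the lowest mean correlation with the other arrays. The 3' minus 5' difference of control probe sets, which rises as RNA degrades, was 1.95 in Dog 12 and 3.77 in Dog 41, a static DLBCL node. It was measured on control probe sets chosen after several pairings had been looked at, and these 2 dogs were highest in each.

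The receptor complex did not vary as a unit. CD3D and CD3G fell and rose together from dog to dog, while CD3E, CD8A, CD8B, CD5, CD6 and CD7 followed a second, separate pattern. CD4 followed the second pattern loosely, and CD247 followed neither closely.

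CD3D ranged from 8.71 to 13.46 with a median of 13.05 over 58 dogs. Most dogs lay close to the top of this range, and 9 dogs lay more than 1 log2 unit below the median, 5 of them lymph nodes and 4 aspirates. The lowest was Dog 11, an ongoing DLBCL node. Its SD of 0.82 was larger than that of 96.8% of all genes, and the values reached much farther below the median than above it.

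CD3G ranged from 6.69 to 11.81 with a median of 11.13. Its low tail was longer: 18 dogs lay more than 1 log2 unit below the median and 12 more than 2 units below. The lowest were Dog 7 at 6.69, Dog 52 at 7.16 and Dog 11 at 7.36, so that low values occurred in static, ND and ongoing tumours. With an SD of 1.37, CD3G varied more than 99.5% of all genes, and 8 of the 9 dogs low in CD3D were also low in CD3G.

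CD3E ranged from 8.82 to 10.54 with a median of 9.43 and an SD of 0.30. Its second probe set ranged from 6.17 to 11.51 with an SD of 1.15, and the 2 probe sets correlated at r = 0.67. The size of a CD3E difference therefore depends on the probe set. Dog 11, lowest of all in CD3D, had a CD3E level of 9.38, close to the median. CD247 ranged from 6.90 to 10.09 with a median of 8.50, spread over the whole range and without a long tail.

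The co-receptors had narrower ranges. CD4 ranged from 7.95 to 9.32 (median 8.55), CD8A from 6.06 to 8.36 (median 6.54) and CD8B from 7.25 to 9.89 (median 8.01). The high end of all 3 was Dog 31, an ongoing aspirate, and the next dog had 7.62 for CD8A, 9.16 for CD8B and 9.18 for CD4. CD5 ranged from 7.74 to 9.34 (median 8.27), CD6 from 7.42 to 8.79 (median 7.77) and CD7 from 6.56 to 8.89 (median 7.26). Dog 31 was highest in 7 of the 10 genes (CD3E, CD247, CD4, CD8A, CD8B, CD5 and CD7) and second in CD6. In CD3D and CD3G it ranked 19th and 28th, in the middle of the dogs.

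**Figure D1:**
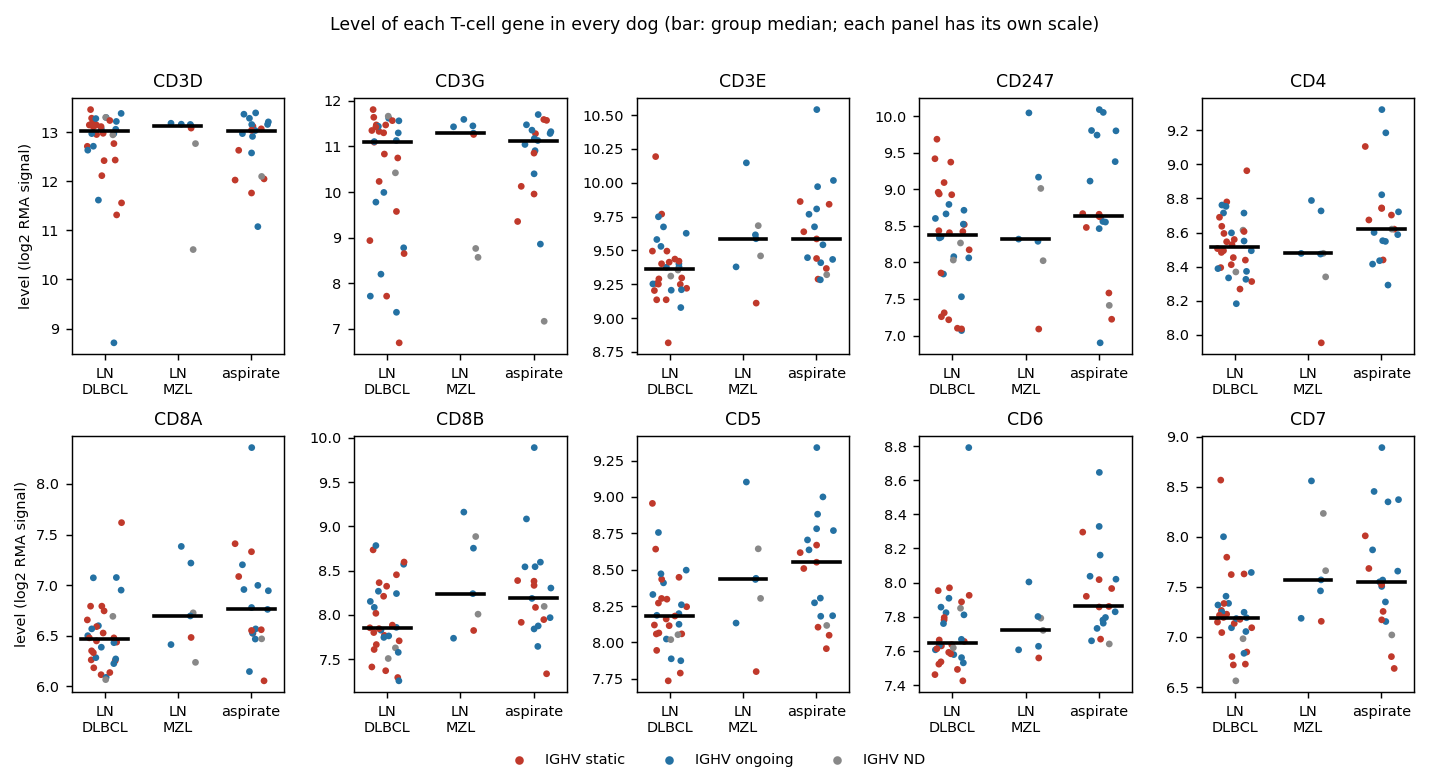
Deposited log2 level of each of the 10 genes (vertical axis, each panel with its own scale) in every dog, by specimen and diagnosis, with colour for IGHV status and a bar at each group's median. CD3D and CD3G are high in most dogs, with low dogs in each group, although in MZL only Dog 36 is low in CD3D. Dog 31, an aspirate, is the highest dog in the other genes except CD6.

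Correlations between genes were computed over 58 dogs after removing the means of the 3 specimen and diagnosis groups, with p-values from 100000 permutations within those groups adjusted by Benjamini-Hochberg over 45 pairs. No p below 1e-05 can come from them, so 1e-05 is the smallest they can give. CD3D and CD3G correlated at Pearson r = 0.70 and Spearman rho = 0.76 (permutation p = 1e-05, adjusted p = 5e-05), with r = 0.70 in lymph node and 0.72 in aspirates. Without the 2 dogs farthest from the median of CD3D, r was 0.71. For CD3D, CD3G had the highest r of 15114 other genes, and for CD3G, CD3D ranked second.

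No relation of either gene with CD3E was found. The r was -0.0031 between CD3D and CD3E (permutation p = 0.981) and -0.014 between CD3G and CD3E (permutation p = 0.917). CD3E ranked 8363rd among 15114 genes for CD3D and 8025th for CD3G. In the RefSeq gene table (assembly UU_Cfam_GSD_1.0), CD3G, CD3D and CD3E are consecutive genes on chromosome 5. Over the 16 pairs of CD3D or CD3G with the other 8 genes, r ran from -0.20 to 0.21 with a median of -0.04, and 0 pairs passed the adjusted threshold of 0.05, with 0 at an unadjusted p under 0.05. By rank, 0 passed the adjusted threshold as well. At an unadjusted Spearman p under 0.05, CD3G ran against CD8A (rho = -0.28, permutation p = 0.0250), CD8B (-0.27, 0.0404) and CD5 (-0.25, 0.0437). With the second probe set of CD3E, r was 0.05 for CD3D and 0.0036 for CD3G.

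The other 8 genes correlated positively in 28 of 28 pairs, with a median r of 0.45, and 20 pairs passed the adjusted threshold (19 by Spearman rho). The closest were CD7 with CD8B (r = 0.79), CD5 with CD7 (0.76) and CD3E with CD5 (0.76), each with a permutation p of 1e-05. CD8A and CD8B, adjacent on chromosome 17 and partners in 1 co-receptor, correlated at 0.64, and CD5 and CD6, adjacent on chromosome 18, at 0.53. CD4 was more loosely tied, from 0.20 with CD7 to 0.43 with CD3E. Within the DLBCL nodes alone, its r with the others of the 8 ran from -0.01 (CD247) to 0.20 (CD3E). Over 58 dogs its r with CD8A was 0.37 (permutation p = 0.00921, adjusted p = 0.0208) and fell to 0.21 without Dog 31 (permutation p = 0.129). Without Dog 31, the median over the 28 pairs was 0.34 and 15 pairs passed. Within the 32 DLBCL nodes alone the median was 0.29 and 8 pairs passed, among them CD7 with CD8B (r = 0.74) and CD3E with CD5 (r = 0.72), while CD3D with CD3G was 0.70.

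CD247 was the loosest of the 8. It correlated with CD8A (r = 0.42, rho = 0.48, permutation p = 0.00192, adjusted p = 0.00480) and CD7 (r = 0.33, rho = 0.24, permutation p = 0.0176, adjusted p = 0.0376, by rank adjusted permutation p = 0.139), and r was 0.18 with CD3E and 0.21 with CD3D. The r with CD7 was 0.09 in lymph node and 0.61 in aspirates, and within the DLBCL nodes the r of CD247 with the other 7 genes ran from -0.33 to 0.28. CD247 also correlated with the 3' minus 5' difference of the array (r = -0.32, rho = -0.22, permutation p = 0.00672, adjusted p = 0.0389 over 110 relations). It failed by rank (adjusted p = 0.257) and rested on 2 dogs, since r was -0.09 without the 2 farthest. Its part in the CD247 results was not tested.

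**Figure D2:**
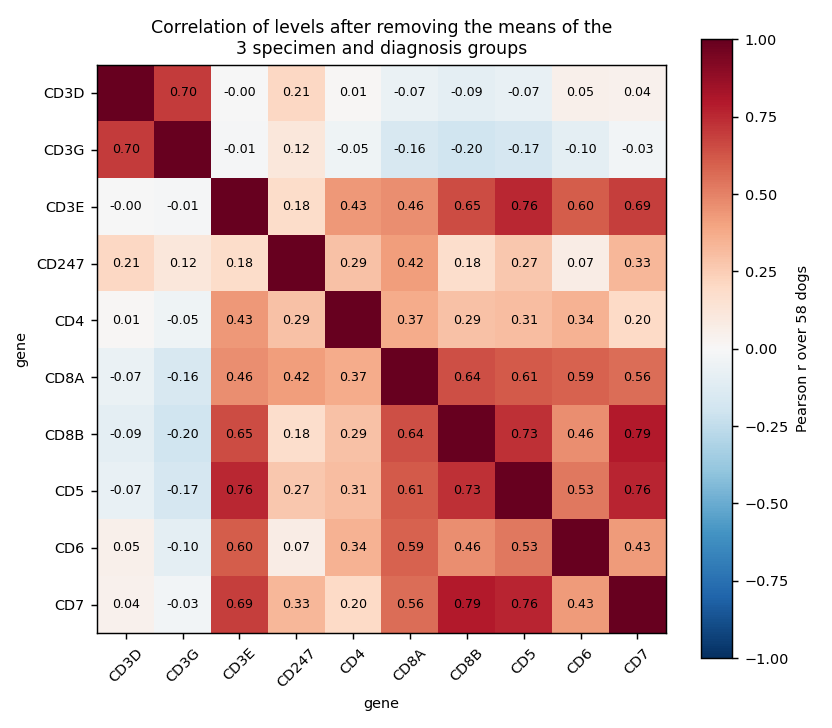
Pearson r between the levels of each pair of the 10 genes over 58 dogs, after removing the means of the 3 specimen and diagnosis groups (red positive, blue negative, value printed in each cell). CD3D and CD3G form a pair at 0.70 that is near 0 or weakly negative with the co-receptors, CD3E, CD5, CD6 and CD7. These correlate among themselves, CD4 the most loosely.

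**Figure D3:**
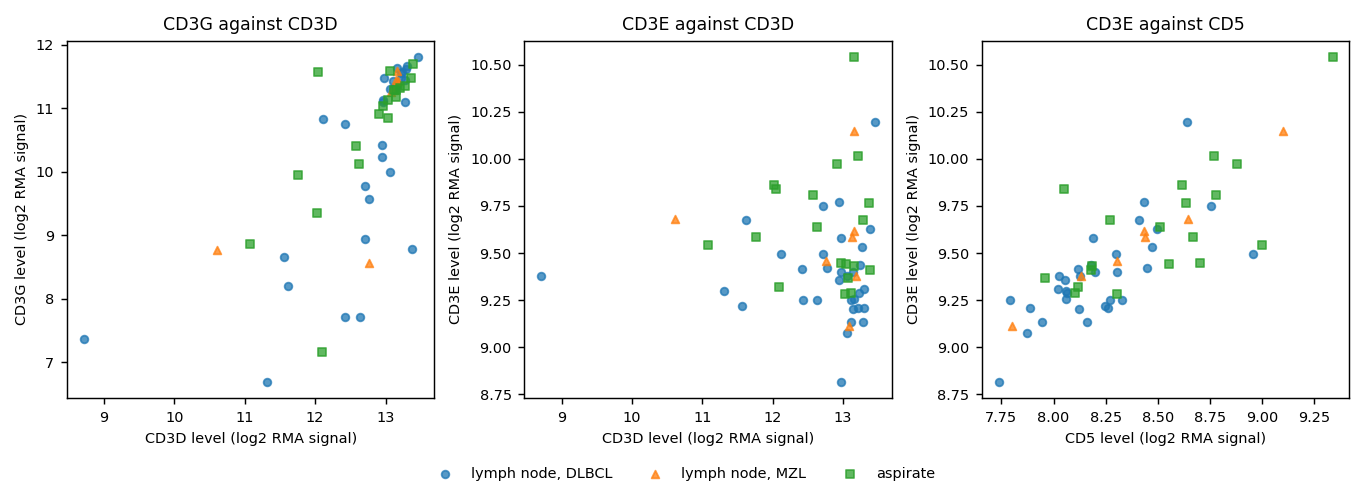
Levels (log2 RMA signal) of CD3G against CD3D, CD3E against CD3D and CD3E against CD5, with 1 point per dog and a marker for specimen and diagnosis. Of the 9 dogs low in CD3D, 8 are low in CD3G. In CD3E all 9 lie between 9.22 and 9.86, on both sides of the median of 9.43 over all dogs. CD3E rises with CD5.

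The genes outside the set with the highest r were named for each gene, leaving out symbols that start with LOC. Nearest, highest and lowest below refer to the genes kept by this rule. For CD3D they were SKAP1 (r = 0.60), an adaptor of T-cell adhesion signalling, the tetraspanin CD151 (0.56) and PIGY (0.54), which acts in the synthesis of membrane anchors. For CD3G they were PRKAR2B (0.75), a regulatory subunit of protein kinase A, ARMC9 (0.63) and the kinase MAP4K5 (0.61). PDE8A, a phosphodiesterase that degrades cyclic AMP, had the lowest r with both, -0.56 with CD3D and -0.64 with CD3G. CD3D and CD3G share much of their pattern, so these lists are not independent of each other.

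For CD3E the nearest genes kept were PRKCQ (0.75), THEMIS (0.74) and CD28 (0.72), a kinase, a signalling adaptor and a costimulatory receptor of T cells. Over all genes CD5 had rank 2 for CD3E (0.76), so a gene left out for its LOC symbol ranked above PRKCQ. SH2D1A, a T-cell adaptor, was nearest to CD8A (0.86), followed by CD27 (0.81), a costimulatory receptor of T and B cells, and the kinase TXK (0.73). CD27 was also nearest to CD8B (0.81), ahead of SYTL3 (0.73) and CD28 (0.72), and to CD7 (0.84). Among the genes kept, the prostaglandin receptor gene PTGDR was nearest to CD5 (0.77), ahead of CD27 (0.76) and SYTL3 (0.72). CD7 had rank 5 over all genes for CD5 (0.76), so genes left out for a LOC symbol ranked above CD27. LEF1 (0.80), a transcription factor of T-cell development, and CD52 (0.79), a lymphocyte surface protein, followed for CD7. CD6 was nearest to the glypican gene GPC4 (0.67), the transcriptional repressor gene GFI1 (0.65) and THEMIS (0.61).

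CD4 and CD247 had neighbours of other kinds. CD4 was nearest to the secreted phospholipase gene PLA2G2D (0.71), the TNF receptor gene TNFRSF1A (0.69) and PLXND1 (0.65). Its r was 0.62 with CSF1R, a receptor of macrophages singled out after its value was seen. With the mean of the granulocyte markers, 10 of 12 measured, the r of CD4 was -0.20 (rho = -0.15, permutation p = 0.148, adjusted p = 0.370 over 110 relations). CD247 was nearest to GAB1 (0.57), WSCD2 (0.54) and TMED1 (0.53).

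The signalling genes of the receptor were set beside each gene as a description. Of 30 genes of T-cell receptor signalling, 27 were measured. For CD3E, 9 of them had an r above 0.5, against 0.371% of all genes, and the median r was 0.19 against 0.03 over all genes. The count was 10 for CD8B (0.463% of all genes), 9 for CD5 (0.384%), 9 for CD7 (0.351%), 5 for CD8A (0.562%) and 5 for CD6 (0.278%). It was 1 for CD3D (0.0463%) and 1 for CD3G (0.377%), the adaptor SKAP1 in both (0.60 and 0.60), with median r of 0.0022 and -0.06. It was 0 for CD247 (0.0662%) and for CD4 (0.410%). These counts were not tested against each other. LAT and LCK were singled out after their values were seen. LAT, the scaffold that the receptor's kinases phosphorylate, had r = 0.64 with CD3E, 0.70 with CD7, 0.05 with CD3D and -0.08 with CD3G. LCK, the kinase that starts receptor signalling, had r = 0.54 with CD3E and 0.14 with both CD3D and CD3G.

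Of 32 T-lineage factors and surface genes, 20 were measured, and the receptor chain genes TRAC, TRBC1, TRBC2 and TRDC had no probe set named here. CD2, an adhesion receptor of T and natural killer cells, was the gene of this list closest to CD3D (0.39) and CD3G (0.54), and its r was 0.03 with CD3E and -0.10 with CD5. CD27 was the gene of this list closest to CD5 (0.76) and CD3E (0.72). TOX, a nuclear protein of developing T cells, was not picked here by the rule for named genes. It had r = 0.70 with CD5, 0.61 with CD3E and -0.07 with CD3D. The pattern of CD3D and CD3G was closest to those of SKAP1 and CD2 among the genes of the 2 lists.

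Markers of cell types, T cells among them, and the 3' minus 5' difference were set against each gene over 110 relations. The natural killer and cytotoxic list does not separate natural killer cells from cytotoxic T cells, and its gene EOMES is also a lineage gene. The mean of 10 natural killer and cytotoxic markers, of 12 listed, correlated with CD8A (r = 0.67, rho = 0.50, permutation p = 1e-05, adjusted p = 0.000550) and CD8B (r = 0.63, rho = 0.55, permutation p = 1e-05, adjusted p = 0.000550). It passed the adjusted threshold by Pearson r also for CD6 (0.50), CD4 (0.48), CD5 (0.46), CD7 (0.43) and CD3E (0.42), but by Spearman rho only for CD8A, CD8B and CD4. The r was -0.10 with CD3D, -0.25 with CD3G and -0.01 with CD247. The mean of 7 B-cell markers, of 8 listed, correlated with CD247 (r = 0.50, rho = 0.42, permutation p = 0.000110, adjusted p = 0.00302) and CD8A (r = 0.40, rho = 0.41, permutation p = 0.00132, adjusted p = 0.0112). With CD3D it was -0.02 and with CD3E -0.16. The 4 other T-cell markers passed with CD247 (0.53), CD3E (0.48), CD3G (0.46), CD7 (0.44) and CD3D (0.35), the plasma cell markers with CD4 (0.46), CD8A (0.43) and CD6 (0.38), the dendritic cell markers with CD247 (0.40) and CD8A (0.36), and the macrophage markers with CD4 (0.34), all by Pearson r. Of these 11 relations, 4 passed by Spearman rho, the T-cell markers with CD247 and CD3D, the plasma cell markers with CD4 and the dendritic cell markers with CD247. The 4 T-cell markers (CD2, LCK, IL7R and TCF7) are also genes of the 2 pathway lists, so these results are not separate. Gene by gene, their median r was 0.13 with CD3D and 0.15 with CD3G, and CD2 was the highest (0.39 and 0.54). The red cell, stromal, endothelial and granulocyte lists passed with none of the 10 genes, with 0 relations at the adjusted threshold. The part of these cell types in the levels was not tested.

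The first comparison asked whether the T-cell genes differed with IGHV status, that is, between tumours labelled static and tumours labelled ongoing. None of the 10 genes was called between static and ongoing tumours, where 0% of all 15115 genes were called (limma over 53 dogs, Benjamini-Hochberg over all genes at 0.05, with specimen and diagnosis in the model). The rank-sum test also called 0. At an unadjusted p under 0.05, 1 of the 10 genes passed, against 7.13% of all genes. This was CD7, which ranged from 6.69 to 8.57 (median 7.19) in 26 static dogs and from 6.84 to 8.89 (median 7.46) in 27 ongoing dogs. The 2 groups overlapped over most of their range. The difference was -0.26 ± 0.13 (SE; limma p = 0.0488, adjusted p = 0.700). At the unadjusted level 0 of the 10 passed without Dog 31 (6.87% of all genes), without Dog 12 and Dog 42 (4.12%), or with array medians centred (7.01%).

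The direction was shared by most of the set. 9 of the 10 genes had lower means in static tumours, with a median difference of -0.11 against -0.0047 over all genes. Over all genes, 7978 of 15115 had lower means. Most of the 9 correlated with each other, so they are not independent. CD5 differed by -0.17 ± 0.090 (SE), CD247 by -0.35 ± 0.23, CD8B by -0.21 ± 0.14 and CD3E by -0.12 ± 0.081. CD6 differed by -0.10 ± 0.071, CD8A by -0.08 ± 0.12 and CD4 by -0.02 ± 0.065, with adjusted p-values from 0.718 to 0.983 over these 7 genes in limma. CD3D, at -0.02 ± 0.23, and CD3G, at 0.14 ± 0.35, had wide errors, and CD3D turned positive within lymph node (0.18). Within the DLBCL nodes alone CD3D (0.21), CD247 (0.13) and CD4 (0.021) were positive. The B-cell marker list had 6 of 7 genes lower in static tumours, with a median of -0.26, and its part in these differences was not tested.

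Within aspirates CD247 ranged from 7.22 to 8.67 (median 8.62) in 7 static dogs and from 6.90 to 10.09 (median 9.38) in 11 ongoing dogs. The static dogs did not reach the upper part of the ongoing range. The difference was -0.87 ± 0.38 (SE; limma p = 0.0336, adjusted p = 0.302), against -0.07 ± 0.27 in lymph node. CD7 differed by -0.58 ± 0.24 in aspirates (limma p = 0.0244, adjusted p = 0.263) and by -0.09 ± 0.14 in lymph node. At an unadjusted p under 0.05, 2 of the 10 genes passed in aspirates, against 14.1% of all genes. In lymph node 0 passed, against 2.24%. The difference between specimens itself was tested as an interaction, which called 0 of the 10 genes, against 0.0132% of all genes. At the unadjusted level 0 of the 10 passed, against 9.1% of all genes. The interaction was -0.80 ± 0.48 for CD247 (limma p = 0.101, adjusted p = 0.624) and -0.49 ± 0.27 for CD7 (limma p = 0.0744, adjusted p = 0.582), and between -0.67 and 0.09 for the other 8 genes.

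Of the 27 signalling genes, 0 were called and 0 passed the unadjusted level, against 7.13% of all genes, and 7 had higher means in static tumours. Those with the smallest p in each direction were PTPN22 (0.22), DGKZ (0.06), PAG1 (-0.52), an adaptor that holds back the receptor's kinases, and UBASH3A (-0.16), a phosphatase of T cells, with limma adjusted p-values from 0.704 to 0.832. Of the 20 lineage genes, 0 were called and 4 passed the unadjusted level, all of them lower in static tumours, and the named ones were IKZF3 (0.10), CCR7 (0.20), TOX (-0.87 ± 0.35) and GATA3 (-0.27 ± 0.089), both of these last with a limma adjusted p = 0.670. In the interaction, 0 genes of either list were called, and 3 of 27 signalling and 1 of 20 lineage genes passed the unadjusted level, against 9.1% of all genes. DGKA (-0.62) and SKAP1 (-0.73) were lower and NFATC1 (0.31) and DGKZ (0.20) higher among the signalling genes, and CD96 (0.27), EOMES (0.96), IL7R (-0.53) and LEF1 (-0.67) were named from the lineage genes. The limma adjusted p-values of these 8 ran from 0.411 to 0.688.

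Aspirates and lymph node were compared as the 2 ways in which tumour was taken, and the unknown diagnosis of the aspirates goes with the specimen and cannot be told apart from it. In this comparison 0 of the 10 genes were called, against 0.119% of all genes, and 0 by the rank-sum test. At an unadjusted p under 0.05, 6 of the 10 passed, against 11.8% of all genes. All 10 had higher means in aspirates, against 46.9% of all genes. Their median difference was 0.25, against -0.0063 over all genes. Many of the 10 correlated with each other, so they are not independent. CD6 ranged from 7.64 to 8.65 (median 7.86) in 19 aspirates. In 39 nodes it ranged from 7.42 to 8.79 (median 7.66), so that the groups overlapped throughout. CD6 had the smallest p of the set (0.22 ± 0.067, SE; limma p = 0.00163, adjusted p = 0.138).

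The difference was 0.23 ± 0.079 for CD3E, 0.18 ± 0.061 for CD4 and 0.26 ± 0.090 for CD5 (SE; limma adjusted p = 0.203, 0.205 and 0.212). It was 0.27 ± 0.12 for CD8A and 0.30 ± 0.14 for CD7 (limma adjusted p = 0.324 and 0.361). CD8B, at 0.24 ± 0.14, and CD247, at 0.39 ± 0.23, missed the unadjusted level. CD3D differed by 0.0052 ± 0.23 and CD3G by 0.30 ± 0.38. CD3D ranged from 11.08 to 13.39 (median 13.03) in aspirates and from 8.71 to 13.46 (median 13.06) in nodes, and the 2 dogs more than 2 log2 units below the median, Dog 11 and Dog 36, were nodes. Without Dog 31, 4 of the 10 genes passed the unadjusted level (CD3E, CD4, CD5 and CD6), against 10.6% of all genes, and CD3D differed by -0.02.

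Markers of other cells moved with the specimen too. The red cell list had 3 of 4 measured genes higher in aspirates past the adjusted threshold, with a median difference of 1.59, and its mean ran from 7.04 to 10.85 in aspirates and from 6.66 to 9.22 in nodes. All 10 measured natural killer and cytotoxic markers had higher means, 1 of them past the adjusted threshold, with a median of 0.32 and a list mean from 6.61 to 9.04 in aspirates and from 6.24 to 8.62 in nodes. The B-cell list was higher in 7 of 7 genes (median 0.22) and the endothelial list in 6 of 6 (median 0.17). No probe set is at 0 on this scale, whose lowest value is 2.82. The part of blood or of these cells in the T-cell differences was not tested.

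Of the signalling genes, 21 of 27 were higher in aspirates and 0 were called. CD28 (0.34 ± 0.094, limma adjusted p = 0.0904) and TXK (0.20 ± 0.054, 0.0970) had the smallest p among the higher ones, and TEC (-0.57 ± 0.19, 0.174) and NFATC2 (-0.27 ± 0.12, 0.338) among the lower. Of the lineage genes, 15 of 20 were higher and 0 were called. FOXP3 (0.12), the factor of regulatory T cells, and THY1 (0.29) led the higher ones, and RUNX3 (-0.09) and IL7R (-0.11) the lower, with limma adjusted p-values from 0.169 to 0.830.

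MZL and DLBCL were compared in the 39 lymph nodes, where 0 of the 10 genes were called, against 0% of all genes, and 0 by the rank-sum test. At an unadjusted p under 0.05, 2 of the 10 passed, against 1.16% of all genes. CD8B ranged from 7.74 to 9.16 (median 8.24) in 7 MZL and from 7.25 to 8.78 (median 7.85) in 32 DLBCL. CD7 ranged from 7.16 to 8.56 (median 7.57) in MZL and from 6.56 to 8.57 (median 7.19) in DLBCL. For CD8B, Dog 43 (9.16) and Dog 36 (8.88), both MZL, lay above the highest DLBCL node, and for CD7 no MZL dog did. The other MZL dogs lay within the DLBCL range in both genes. The differences were 0.43 ± 0.18 for CD8B (SE; limma p = 0.0224, adjusted p = 1.00) and 0.45 ± 0.17 for CD7 (limma p = 0.0121, adjusted p = 1.00).

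These 2 differences rested on few dogs. Without Dog 43, an ongoing MZL and the highest MZL in both genes, CD8B differed by 0.30 and CD7 by 0.31, and without Dog 36, an ND MZL, by 0.34 and 0.36. In each case 0 of the 10 genes passed the unadjusted level, against 1.16% of all genes without Dog 43 and 0.893% without Dog 36. Without Dog 58, a static MZL with low levels, 4 passed, against 1.44% of all genes. The other genes differed by between -0.06 (CD4) and 0.31 (CD3G). Of the 10 genes, 8 were higher in MZL, against 46.1% of all genes, with a median of 0.21 against -0.0070 over all genes. Here too many of the genes correlated with each other and are not independent. CD3D differed by -0.00085 ± 0.37, with 6 MZL dogs between 12.76 and 13.18 and Dog 36 at 10.61. The natural killer and cytotoxic list was higher in 7 of 10 genes (median 0.33) and the stromal list in 6 of 6 (median 0.26), and their part in these differences was not tested.

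Among the signalling genes, SH2D1A (0.79 ± 0.26) and PRKCQ (0.23 ± 0.090) were higher in MZL and PTPN22 (-0.35) and DGKZ (-0.11) lower. TOX (1.62 ± 0.48) and CD27 (0.67 ± 0.26) were higher and IKZF3 (-0.29) and CCR7 (-0.50) lower among the lineage genes. None of the 27 and 20 genes was called, and the limma adjusted p was 1.00 for all 8.

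**Figure D4:**
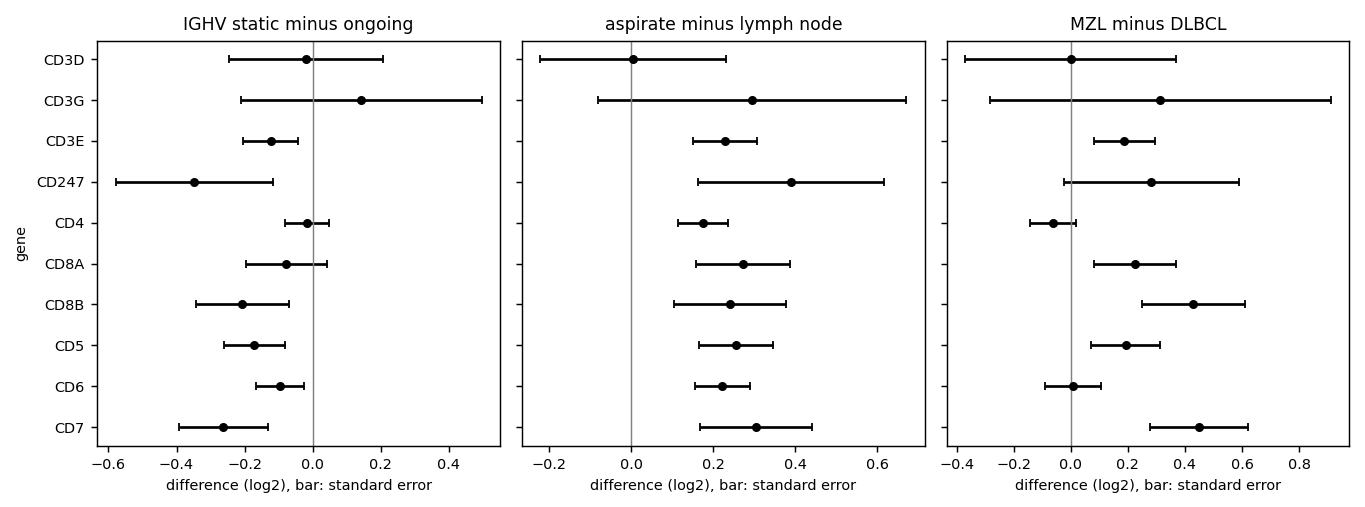
Difference in mean log2 level of each gene between static and ongoing IGHV status, between aspirates and lymph node and between MZL and DLBCL (horizontal axis; points are limma estimates, bars are 1 standard error). All 10 points of the aspirate panel lie at or to the right of 0, and the bars of CD3D and CD3G are the widest with those of CD247.

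Outcome was tested gene by gene with the score test of a Cox model with specimen as stratum, and the hazard ratio is given per log2 unit, so that a value below 1 means fewer events at higher levels. None of the 10 genes was called for PFS, against 0% of all genes, or for OS, against 0.00662% of all genes. At an unadjusted p under 0.05 the counts were also 0 of 10 for both, against 2.83% of all genes for PFS and 3.99% for OS.

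CD3G ranged from 9.96 to 11.57 (median 11.21) in the 8 dogs with no progression recorded and from 6.69 to 11.81 (median 11.13) in the 47 dogs with progression. Of the 8 dogs, 1 (Dog 47) lay more than 1 log2 unit below the median of all dogs and 0 lay more than 2 below, and the medians of the groups were close. Its hazard ratio was 0.88 for PFS (95% interval 0.72 to 1.07, Cox score p = 0.197) and 0.92 for OS (0.74 to 1.13, p = 0.427). CD3D ranged from 11.76 to 13.27 in the 8 dogs and from 8.71 to 13.46 in the 47, with a hazard ratio of 1.05 (0.75 to 1.45) for PFS and 1.14 (0.81 to 1.59) for OS.

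CD3E ranged from 9.28 to 9.62 (median 9.55) in the 8 dogs and from 8.82 to 10.54 (median 9.40) in the 47. Its hazard ratio was 0.58 (0.21 to 1.64) for PFS and 0.46 (0.13 to 1.59) for OS, and intervals of this width allow large effects in either direction. For CD247 the values were 1.03 (0.71 to 1.50) and 1.21 (0.81 to 1.81). CD4, whose range is narrow, had 0.52 (0.12 to 2.16) and 1.16 (0.24 to 5.54). CD8A had 0.98 (0.50 to 1.94) and 1.27 (0.60 to 2.69), and CD8B 0.82 (0.45 to 1.50) and 0.81 (0.41 to 1.58). CD5 had 0.57 (0.20 to 1.59) and 0.68 (0.23 to 2.00), CD6 0.85 (0.21 to 3.40) and 1.42 (0.31 to 6.58), and CD7 0.96 (0.52 to 1.77) and 0.89 (0.46 to 1.72). All 20 intervals included 1.

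CD8A turned above 1 for PFS without Dog 31 (1.24), a dog with the highest CD8A and a PFS time of 523. In the DLBCL nodes alone its hazard ratio for OS was 4.18 (1.07 to 16.3, Cox score p = 0.0372, adjusted p = 0.885), 1 of 10 genes at the unadjusted level there, against 5.61% of all genes in the same 30 dogs.

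In the pathway lists 0 genes were called for either outcome, and every gene named from them had an adjusted p of 1.00 in the Cox score test. PAG1 had a hazard ratio of 0.72 (0.54 to 0.97, Cox score p = 0.0276) for PFS and 0.67 (0.48 to 0.93, p = 0.0137) for OS. UBASH3A had 0.30 (0.11 to 0.85) for PFS and PRKCQ 0.23 (0.061 to 0.87) for OS. On the other side, SIT1 had 1.80 for both outcomes, NFATC2 1.55 for PFS and PTPN22 1.40 for OS, all with intervals that included 1. Of the lineage genes, GATA3 had 0.40 for PFS and 0.32 for OS and CD96, a receptor of T and natural killer cells, 0.21 and 0.12, but CD96 turned to 1.27 and 1.51 when its probe sets were averaged. IL7R (1.36) and CCR7 (1.22) for PFS and IKZF3 (2.03) and THY1 (1.92) for OS were the named genes above 1, with intervals that included 1.

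**Figure D5:**
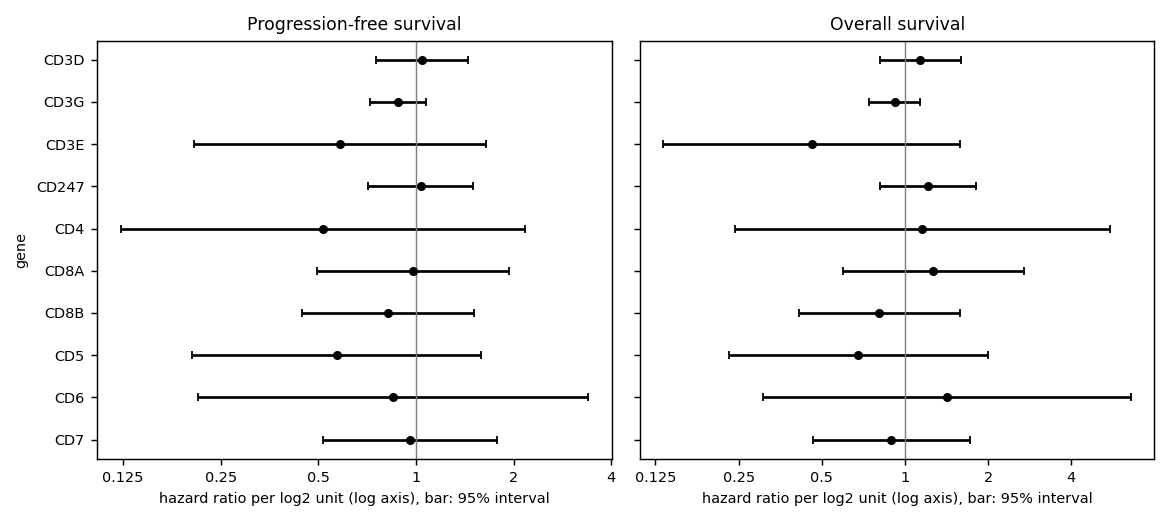
Hazard ratio per log2 unit of each gene for progression-free survival (55 dogs) and overall survival (56 dogs), on a log axis, with 95% intervals as bars. Every interval crosses 1, and those of CD3D and CD3G are the narrowest.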

How the data were processed

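The deposited table holds log2 signals (43035 probe sets, 58 arrays) that the authors made with RMA in Affymetrix Expression Console, per the submitters' processing notes, with values from 2.82 to 15.11. Versions, the array's genome build and any batch are not given in the sources used here. Each dog gave 1 sample, so p-values set differences and relations against the spread between dogs. With 1 array per dog this spread includes that between arrays, and the number of arrays limits precision.

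Probe sets named genes through a platform annotation table: 29254 carried 1 symbol, 439 several, 13231 none, and 111 were controls. Group differences came from limma 3.58.1 (R 4.3.3), two-sided, adjusted by Benjamini-Hochberg over 15115 genes at 0.05. The IGHV models held specimen and diagnosis. Cox models used survival 3.8.3, with an indicator of 1 read as an event, since PFS and OS times were equal in all 8 dogs whose PFS indicator was 0. Correlations used Python 3.11.15, numpy 2.4.6 and pandas 2.3.3, and figures matplotlib 3.10.9. The 3' minus 5' pairing was chosen after several had been looked at. The code was tested on simulated data.

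The 10 genes and all gene lists were chosen with earlier results of these data known. Named genes were the 10 and the 3 nearest other genes to each, with symbols that start with LOC left out. The 2 genes in each direction with the smallest p of each pathway list per comparison were named too. Counts of genes with r above 0.5 were chosen after seeing the data. Alternatives were other probe sets, scalings, a level filter, arrays left out, covariates, a rank-sum test and subgroups.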

Additional observations from a re-analysis of the deposited data

Results flagged for a closer look

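Each gene and second probe set was examined for a dog far from the rest of its group in groups of 4 to 10 dogs. There were 64 such checks over 4 groups, some of which share dogs, and 5 marked a dog. The rule is set to mark about 1 in 20 by chance. All 5 marks were low dogs in CD3D or CD3G, whose values have long low tails, so that rate need not hold here. In the 7 MZL nodes, Dog 36 lay lowest in CD3D at 10.61, with the next dog at 12.76. The second CD3D probe set gave 9.56 for the same dog, with the next at 12.02. Both probe sets read 1 transcript, so these are not independent.

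Among the 8 dogs with no progression recorded, Dog 47, a static aspirate, lay lowest in CD3D at 11.76, with the next dog at 12.97. It was also lowest in CD3G at 9.96, with the next dog at 11.04. Its second CD3D probe set was at 10.96, with the next dog at 12.09.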

How the results depend on the processing

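No paired analysis was possible because each dog gave 1 sample. No gene of the 10 was called under any alternative, with a lowest adjusted p of 0.0632 (limma, aspirates against lymph node). Of 798 alternative values of the 10 genes, 739 kept their direction and 59 did not. The cause of each change below was not tested.

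At an unadjusted p under 0.05, the IGHV comparison had 1 of the 10 genes, against 7.13% of all genes. It had 0 with array medians centred, genes above the median level, the 2 low-correlation arrays left out, high 3' minus 5' arrays left out, that difference as covariate, Dog 31 left out, the rank-sum test, lymph node alone or DLBCL alone. The share of all genes in these settings ran from 1.82% (DLBCL alone) to 9.2% (genes above the median level). The comparison had 4 with no covariate, against 8.04% of all genes. It had 2 in aspirates alone (14.1% of all genes) and 2 there with the highest-SD probe sets (15.9%). The interaction had 1 without high 3' minus 5' arrays (7.13% of all genes), 1 with that covariate (6.81%) and 2 with DLBCL and aspirates only (10.3%). The MZL comparison had 1 with genes above the median level (0.648% of all genes) and 1 by rank-sum (1.24%). With 1 MZL dog left out it had from 0 to 4. These were 0 without Dog 36 (0.893%) or Dog 43 (1.16%), 1 without Dog 57 (1.43%) and 4 without Dog 58 (1.44%). OS had 1 in DLBCL alone, against 5.61% of all genes. Over all genes, the specimen comparison called 18, against 58 with probe sets averaged, 107 with the highest-SD probe set, 31 with that and no Dog 31, 41 with centred medians, 41 with the 3' minus 5' covariate, 27 after quantile normalization, 6 with genes above the median level, 6 with DLBCL nodes only, 10 without low-correlation or high 3' minus 5' arrays, 11 without Dog 31, 12 with IGHV status as covariate and 0 by rank-sum (1594 unadjusted). IGHV status called 6 in aspirates alone and 30 there with the highest-SD probe set, against 0. The interaction called 2, against 1 in several settings. OS called 1, against 0 to 3, and PFS 0, against 0 or 1.

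For IGHV status, CD3D turned to 0.022 without low-correlation arrays, 0.18 in lymph node and 0.21 in DLBCL. CD3G turned to -0.075 with no covariate and -0.29 in aspirates. CD247 turned to 0.13 in DLBCL. CD4 turned to 0.011 with the highest-SD probe set, 0.0036 without Dog 31, 0.038 in aspirates (0.11 with the highest-SD probe set) and 0.021 in DLBCL. PAG1 turned to 0.0079 in aspirates (0.23 with the highest-SD probe set). DGKZ turned to -0.013 in lymph node and -0.00803 in DLBCL. In the interaction, CD3E turned to 0.00032 without high 3' minus 5' arrays and 0.052 without Dog 31, CD8A to 0.061 without low-correlation arrays and 0.12 without Dog 31, and with the highest-SD probe set CD6 turned to -0.0072 and DGKA to 0.11.

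For specimen, CD3D turned to -0.013 with probe sets averaged, -0.031 with the highest-SD probe set (-0.059 also without Dog 31), -0.018 without Dog 31 and -0.027 with IGHV status as covariate. For MZL, CD3D turned to 0.0031 with centred medians, 0.016 without high 3' minus 5' arrays, 0.020 with that covariate, 0.12 with IGHV status as covariate and 0.35 without Dog 36 (from -0.077 to 0.35 with 1 MZL dog left out). CD4 turned to 0.021 without Dog 58 (from -0.12 to 0.021). CD6 turned to -0.048 with probe sets averaged, -0.10 with the highest-SD probe set, -0.038 with IGHV status as covariate, -0.0028 without Dog 36, -0.038 without Dog 43 and -0.0044 without Dog 45 (from -0.038 to 0.036).

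Hazard ratios crossed 1 as follows. For PFS, CD247 was 0.96 with the 3' minus 5' covariate. CD8A was 1.03 with probe sets averaged, 1.04 with the highest-SD probe set, 1.0004 without low-correlation arrays, 1.24 without Dog 31, 1.25 in lymph node, 3.23 in DLBCL and 1.18 with IGHV status. In DLBCL, CD8B was 1.03, CD5 1.25, CD6 2.03 and CCR7 0.93. CD6 was also 1.06 without Dog 31, 2.27 in lymph node and 1.02 with IGHV status, and CD7 was 1.06 and 1.18 without Dog 31 and with IGHV status. CD96 was 1.27 with probe sets averaged and 1.54 with the highest-SD probe set for PFS, and 1.51 and 1.44 for OS. For OS, CD4 was 0.9955 without high 3' minus 5' arrays, 0.81 with that covariate and 0.94 in lymph node. In aspirates, CD8B was 1.10, CD6 0.49, CD7 1.29 and GATA3 1.01. CD5 was 1.26 in DLBCL, and CD6 was 0.97 with probe sets averaged and 0.75 with the highest-SD probe set.

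The median r over 45 pairs was 0.29, 0.43 in aspirates and 0.10 in DLBCL, where 8 pairs of the other 8 genes passed. The r of CD3E with CD3D turned to 0.038 in aspirates, 0.0041 without low-correlation arrays, 0.049 with the highest-SD probe set, 0.0057 in DLBCL and 0.028 without the 2 dogs lowest in CD3D. With CD3G it turned to 0.15 in aspirates and 0.0036 with the highest-SD probe set. CD3D with CD3G stayed between 0.69 and 0.72.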
